A study of Mus musculus with 48 samples.

Results

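The hypophysiotropic peptide genes described here were *Crh*, *Trh*, *Ghrh*, *Sst* and *Gal*, the 5 genes given by name, of 16510 genes in a table of unique molecular identifier (UMI) counts per cell. The counts came from single-cell RNA sequencing of the mouse hypothalamus at E18.5, in 6 control embryos and 9 *Eed-cKO* embryos. *Eed* encodes a core subunit of Polycomb repressive complex 2, which places the repressive histone mark H3K27me3, and the study asked which hypothalamic cell types depend on it. Control embryos were *Eed* fl/fl and carried no Cre, and *Eed-cKO* embryos were *Eed* fl/fl; *Sox1-Cre*/+, so that both groups carried the floxed alleles. Cre was driven from *Sox1*, a gene of neural progenitors throughout the brain and spinal cord, so the deletion was not limited to the hypothalamus or to any peptide cell type. The mice were on a mixed B6 and 129S1 background. The control embryos came from 4 litters (4 males and 2 females) and the *Eed-cKO* embryos from 6 (4 males and 5 females). No litter held both genotypes, so litter and genotype cannot be told apart. Of these litters 2 control and 3 *Eed-cKO* ones gave 2 embryos each, and the tests count such littermates as separate replicates.

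Each hypothalamus was cut into pieces ahead of dissociation, and there were 22 control and 26 *Eed-cKO* libraries; the labels do not say which piece or pieces a library holds. The number of libraries per embryo ranged from 3 to 4 in controls and from 1 to 4 in *Eed-cKO*. Cells outside endothelial, pericyte or smooth muscle, vascular leptomeningeal and microglia or macrophage clusters were called All-Hypo cells. There were 13293 of them, 6839 control and 6454 *Eed-cKO*, against 828 non-neural cells. Control embryos held 5055844 to 7328566 UMIs in All-Hypo cells and *Eed-cKO* embryos 627508 to 5787326, with median UMIs per cell of 4768 and 4425. The sex read from a Y-linked gene differed from the label in 0 of 15 embryos. Of 14019 barcodes, 101 occurred in more than 1 library, which made 103 pairs of cells, 8 of them within an embryo. *Eed* itself had a level of 32.0 ± 1.90 CPM (SD, n = 6; CPM is the UMIs of a gene scaled to a common library total) in control and 23.4 ± 2.62 (n = 9) in *Eed-cKO* embryos, and every *Eed-cKO* embryo lay below every control, as 2.66% of the genes tested did. The 3′ tags of *Eed* lie outside the floxed exons, so its level does not by itself check the labels.

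Hypophysiotropic peptides are made by hypothalamic neurons that send axons to the median eminence, where the peptides enter the portal vessels and act on the anterior pituitary. Crh (corticotropin-releasing hormone) drives release of ACTH, Trh (thyrotropin-releasing hormone) that of thyrotropin and prolactin, and Ghrh (growth hormone-releasing hormone) that of growth hormone, while Sst (somatostatin) inhibits growth hormone and thyrotropin. Gal (galanin) is a co-transmitter made by many of these neurons and by other hypothalamic cells. *Crh* and *Trh* neuroendocrine cells lie mainly in the paraventricular nucleus, *Ghrh* cells in the arcuate nucleus and *Sst* neuroendocrine cells in the periventricular nucleus, and *Trh*, *Sst* and *Gal* are also made in many hypothalamic neurons that do not project to the median eminence.

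In the GENCODE annotation of GRCm38 (mm10) all 5 genes lie on the minus strand, and none overlaps another annotated gene. *Crh* (2 exons) lies at chr3:19693401-19695396, *Trh* (3 exons) at chr6:92242061-92244650 and *Ghrh* (5 exons) at chr2:157329497-157347506. *Sst* (2 exons) lies at chr16:23889573-23890958 and *Gal* (6 exons) at chr19:3409915-3414544. Promoters are shown because H3K27me3 is placed mainly over promoters that are rich in CG dinucleotides, and because the *Sst* promoter carries the cAMP response element TGACGTCA for which it is known. RefSeq promoters (GRCm38.p6) matched 4 of the 5 genes, and *Crh* is named only. The 250 bases before each start are printed 5′ to 3′ on the gene's strand, with CG dinucleotides and the motif TGACGTCA in capitals. The *Sst* start and both *Ghrh* starts listed lie within the annotated genes. Part of the printed *Sst* bases, with TGACGTCA, and all printed *Ghrh* bases therefore lie inside those genes.
Sst, chr16:23890845-23891094: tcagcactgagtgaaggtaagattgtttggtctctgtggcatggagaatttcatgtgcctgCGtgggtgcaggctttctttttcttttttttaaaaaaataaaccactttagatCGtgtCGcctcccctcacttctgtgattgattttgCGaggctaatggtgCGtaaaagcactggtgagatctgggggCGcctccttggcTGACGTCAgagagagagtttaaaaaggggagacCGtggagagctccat
Trh, chr6:92244651-92244900: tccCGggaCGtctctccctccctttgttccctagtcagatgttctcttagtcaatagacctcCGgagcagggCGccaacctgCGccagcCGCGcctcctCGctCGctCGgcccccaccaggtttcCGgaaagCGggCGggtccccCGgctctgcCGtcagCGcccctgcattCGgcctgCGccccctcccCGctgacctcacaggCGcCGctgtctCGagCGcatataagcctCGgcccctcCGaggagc
Gal, chr19:3414545-3414794: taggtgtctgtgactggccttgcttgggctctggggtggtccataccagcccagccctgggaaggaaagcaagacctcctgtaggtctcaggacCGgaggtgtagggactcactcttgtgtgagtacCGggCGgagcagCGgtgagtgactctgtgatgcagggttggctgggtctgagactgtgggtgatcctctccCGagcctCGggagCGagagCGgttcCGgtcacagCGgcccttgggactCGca
Ghrh inner start, chr2:157337427-157337676: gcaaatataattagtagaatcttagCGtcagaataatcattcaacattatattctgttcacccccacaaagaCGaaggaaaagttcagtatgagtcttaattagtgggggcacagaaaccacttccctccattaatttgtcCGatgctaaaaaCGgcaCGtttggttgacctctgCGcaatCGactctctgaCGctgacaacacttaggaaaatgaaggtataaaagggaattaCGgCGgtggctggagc
Ghrh outer start, chr2:157346656-157346905: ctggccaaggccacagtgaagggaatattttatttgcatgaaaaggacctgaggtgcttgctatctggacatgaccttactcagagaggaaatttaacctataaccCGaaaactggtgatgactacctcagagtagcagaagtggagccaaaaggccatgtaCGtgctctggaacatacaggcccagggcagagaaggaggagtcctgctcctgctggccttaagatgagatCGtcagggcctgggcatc
The *Trh* promoter held 25 CG dinucleotides, and 10.7% of all promoters of this length held as many or more, against a median of 6. The *Gal* promoter held 11, the *Sst* promoter 8, and the *Ghrh* promoters 10 and 3. TGACGTCA, which reads the same on both strands, began 48 bases before the *Sst* start, and 1.55% of all promoters held it. The letters TATAAA, searched on the gene's strand, began 31 bases before the inner *Ghrh* start and occurred in 7.59% of promoters. These matches are descriptions of sequence, and no mark or factor was measured on them.

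Among the 5 genes, *Crh* and *Ghrh* had lower levels in *Eed-cKO* than in control embryos, while the tests of *Trh*, *Sst* and *Gal* did not pass. Levels are UMIs summed over the All-Hypo cells of an embryo, in CPM, and in such sums fewer cells of a type and less RNA per cell cannot be told apart. In edgeR's quasi-likelihood test 2 of 5 genes were called lower at an adjusted p under 0.05, where 27.7% of the 12558 genes tested were called, 12.4% lower and 15.3% higher. The median log2 fold change of the 5 was -0.39, beside 0.01 over all genes tested. With littermates summed as 1 sample (4 control and 6 *Eed-cKO* litters), an alternative chosen after seeing the data, *Crh* (-2.41 on the log2 scale, edgeR adjusted p = 0.0057) and *Ghrh* (-1.60, edgeR adjusted p = 0.022) were again the genes called lower.

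*Crh* ranged from 4.14 to 42.4 CPM in control embryos (median 9.05) and from 0 to 9.40 in *Eed-cKO* embryos (median 2.43). *Eed-cKO* embryos 2 and 3 were at 0, and the groups overlapped. The mean fell from 14 ± 14.4 (SD, n = 6) to 3.08 ± 2.99 CPM (n = 9), a log2 fold change of -2.14 ± 0.51 (SE; edgeR adjusted p = 0.0037). Control embryo 6 alone reached 42.4 CPM, and without it the log2 fold change was -1.37 (edgeR adjusted p = 0.025).

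*Ghrh* ranged from 5.43 to 80.2 CPM in control (median 11.2) and from 0 to 14.7 in *Eed-cKO* embryos (median 4.30). Control embryos 5 and 2 were high, at 80.2 and 39.0 CPM, and the other control embryos lay within the *Eed-cKO* range. The mean was 25.7 ± 29.4 (SD, n = 6) against 7.28 ± 5.34 CPM (n = 9), with a log2 fold change of -1.69 ± 0.52 (SE; edgeR adjusted p = 0.019). The call rested on control embryo 5: without it the log2 fold change was -0.91 (edgeR adjusted p = 0.13). It passed in 7 of 12 other settings. It did not pass with sex as a covariate (-1.36), without 3 cell clusters that held over 95% *Eed-cKO* cells (-1.39), in embryos with at least 3 libraries (-1.56) or in limma-voom by embryo (-1.30) or by library (-1.26).

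*Gal* ranged from 60.5 to 84.6 CPM in control (median 72.1) and from 34.6 to 86.0 in *Eed-cKO* embryos (median 54.5). Of the *Eed-cKO* embryos, 2 lay within or above the control range. The means were 72.5 ± 10.1 and 55.1 ± 17.1 CPM (SD, n = 6 and 9), and the log2 fold change of -0.39 ± 0.15 (SE) did not pass (edgeR adjusted p = 0.053). It passed when *Eed-cKO* embryos with fewer than 3 libraries were left out (-0.53, edgeR adjusted p = 0.0030).

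*Sst* ranged from 125 to 283 CPM in control (median 175) and from 160 to 338 in *Eed-cKO* embryos (median 248). The groups overlapped over most of their range. The means were 188 ± 63.6 and 248 ± 56.6 CPM (SD, n = 6 and 9), with a log2 fold change of 0.41 ± 0.17 (SE; edgeR adjusted p = 0.088). *Trh* ranged from 12.4 to 25.4 CPM in control (median 17.6) and from 7.38 to 28.7 in *Eed-cKO* embryos (median 17.4). Its means, 17.6 ± 4.64 and 17.9 ± 7.16 CPM, gave a log2 fold change of 0.03 ± 0.22 (SE; edgeR adjusted p = 0.95), so that the range of the *Eed-cKO* embryos enclosed that of the controls.

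**Figure D1:**
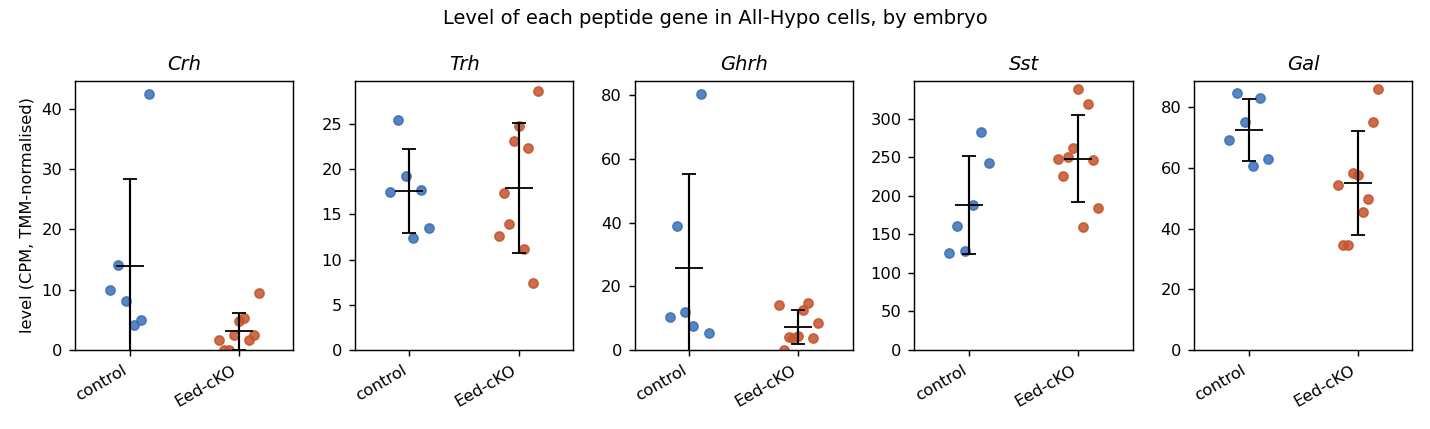
Level of each peptide gene in All-Hypo cells (CPM, TMM-normalised, linear axis) against genotype, 1 panel per gene; each point is an embryo (6 control, 9 *Eed-cKO*) and the bars are the mean ± SD. Control embryo 6 for *Crh* (42.4 CPM) and control embryo 5 for *Ghrh* (80.2 CPM) stand above all other embryos, and the groups overlap for all 5 genes.

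A level can change through the number of cells with the gene or through the UMIs in each of them, and the 5 genes differed in this respect. A cell was called positive for a gene from 1 UMI on, and shares were compared over embryos by exact two-sided permutation over all splits, adjusted over the 5 genes. *Crh*-positive cells made up 1.43% ± 0.690 (SD, n = 6) of All-Hypo cells in control and 0.466% ± 0.323 (n = 9) in *Eed-cKO* embryos (exact p = 0.0008, adjusted p = 0.0040). The control embryos ranged from 0.878% to 2.76% and the *Eed-cKO* embryos from 0 to 0.895%, with 0 of 9 above the control median. *Crh* shares thus overlapped only at the edge of each group.

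*Sst*-positive cells made up 6.91% ± 1.71 in control and 11.3% ± 5.04 in *Eed-cKO* embryos (exact p = 0.022, adjusted p = 0.054; with littermates averaged as 1 sample, exact permutation, adjusted p = 0.024). The *Eed-cKO* embryos spread from 6.71% to 20.7%, and 9 of 9 lay above the control median of 6.69%. 3 cell clusters held over 95% *Eed-cKO* cells (22 control and 1830 *Eed-cKO* cells), and with these left out, an alternative chosen after seeing the data, the *Sst* share was 6.92% in control and 7.17% in *Eed-cKO* embryos (exact permutation, adjusted p = 0.87).

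*Ghrh*-positive cells made up 1.79% ± 0.447 in control and 1.12% ± 0.609 in *Eed-cKO* embryos (exact p = 0.040, adjusted p = 0.067), and with those clusters left out 1.79% and 1.04% (exact permutation, adjusted p = 0.023). This *Ghrh* difference passed in 3 of 7 alternatives. *Trh*-positive cells made up 2.93% ± 0.340 and 3.31% ± 1.43 (exact permutation, adjusted p = 0.58), and *Gal*-positive cells 10.8% ± 1.74 and 12.0% ± 4.16 (exact permutation, adjusted p = 0.58). The spread between *Eed-cKO* embryos was wider than that between controls for *Trh*, *Sst* and *Gal*.

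Positive cells were deeper than the others: *Crh*-positive cells had a median of 7786 UMIs in control and 9315 in *Eed-cKO* embryos, against 4739 and 4413 in all other All-Hypo cells. Cells were also thinned to 2000 UMIs each (1231 control and 1015 *Eed-cKO* cells were shallower and dropped), where shares became 0.883% and 0.267% for *Crh* (exact permutation, adjusted p = 0.020) and 4.98% and 8.18% for *Sst* (exact permutation, adjusted p = 0.046). Thinning left the direction of both as it was. For *Ghrh* the thinned shares were 0.846% in control and 0.620% in *Eed-cKO* embryos. With at least 3 UMIs they were 0.435% and 0.245%, and neither *Ghrh* difference passed. The non-neural cells, a class not known to use these genes, numbered 347 in control (median 3946 UMIs) and 481 in *Eed-cKO* embryos (median 3708 UMIs). Their positive shares were 0.576% and 0% for *Crh*, 0.288% and 1.66% for *Trh*, 0.288% and 0.208% for *Ghrh*, 2.31% and 1.87% for *Sst* and 3.17% and 1.25% for *Gal*. A count of 0 in 481 cells allows a share of up to 0.624%, and the *Eed-cKO* share of *Crh* in All-Hypo cells was below that limit. 1 control cell in a vascular leptomeningeal cluster held 41 *Crh* UMIs, of 43 in all non-neural control cells. The neural shares of the other 4 genes were above the non-neural ones in both groups. For *Ghrh* in *Eed-cKO* embryos, however, the 95% interval of the non-neural share reached 1.15%, above the All-Hypo mean of 1.12%. For *Crh* in control that interval reached 2.07%, above the All-Hypo mean of 1.43%.

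Most positive cells held 1 to 9 UMIs, and for *Crh* and *Ghrh* 10 cells held most of the UMIs. In control *Ghrh* was the most uneven: 10 of 127 control positive cells held 74.9% of its 972 UMIs, and 1 cell held 320. For *Crh* the 10 highest of 94 control cells held 60.1% of 556 UMIs, in *Eed-cKO* embryos the 10 highest held 72.0% of *Crh* and 65.8% of *Ghrh* UMIs, and the highest of 32 *Eed-cKO* cells held 18 UMIs against 127 in control. *Trh* had 650 UMIs in 200 control cells and 611 in 225 *Eed-cKO* cells, of which 64.0% and 66.7% held 1 UMI. *Sst* had 7016 UMIs in 490 control cells and 8583 in 731 *Eed-cKO* cells, with up to 560 and 604 in a cell. *Gal* was the most evenly spread, with 2668 UMIs in 743 control cells, where the 10 highest held 14.6%, and 1824 UMIs in 779 *Eed-cKO* cells. Cells with 10 or more UMIs numbered 13 and 3 for *Crh*, 11 and 7 for *Trh*, 14 and 4 for *Ghrh*, 130 and 164 for *Sst* and 53 and 24 for *Gal* in control and *Eed-cKO* embryos.

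*Gal* was the gene whose UMIs per positive cell, taken over all All-Hypo cells, differed between genotypes. Per embryo its mean UMIs per positive cell ranged from 2.91 to 4.88 in control (geometric mean 3.62) and from 1.69 to 2.75 in *Eed-cKO* embryos (geometric mean 2.24), a ratio of 0.620. The groups did not overlap (exact two-sided permutation p = 0.0004, the smallest that the splits can give, adjusted over 5 genes p = 0.0020). With littermates averaged as 1 sample the log2 difference was -0.64, and the 4 control and 6 *Eed-cKO* litters did not overlap (exact permutation over 210 splits, p = 0.0095, adjusted p = 0.048). With the clusters of *Eed-cKO* cells left out the log2 difference was -0.47 instead of -0.69 (exact permutation, adjusted p = 0.022). The share of *Gal*-positive cells, in contrast, did not pass. The positive cells were spread differently over clusters in the 2 genotypes. In the clusters with most control *Gal* UMIs, pooled over embryos and with no test, the values were close: 5.41 UMIs per positive cell in control and 4.92 in *Eed-cKO* in a cluster led by *Six6* and *Dlx1* (152 and 48 positive cells), and 5.61 and 5.38 in one led by *Avp* and *Oxt* (132 and 69), of 743 control and 779 *Eed-cKO* positive cells in all. In a cluster led by *Cited1* the values were 3.86 and 2.20 (43 and 79 cells), and *Eed-cKO* was the lower in 7 of the 9 clusters with at least 20 positive cells in each genotype. The part of cluster makeup in the difference was not tested.

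For the other 4 genes the difference in UMIs per positive cell did not pass. The geometric means were 14.3 in control and 11.1 in *Eed-cKO* embryos for *Sst* (exact permutation, adjusted p = 0.34), 4.89 and 2.96 for *Ghrh* (n = 6 and 8; exact permutation, adjusted p = 0.34) and 3.18 and 2.5 for *Trh* (n = 6 and 8; exact permutation, adjusted p = 0.34). *Crh* gave 4.09 in 6 control embryos and 2.75 in the 3 *Eed-cKO* embryos with at least 5 positive cells (exact permutation, adjusted p = 0.45). All 4 were lower in *Eed-cKO* embryos in the mean, within the spread between embryos.

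**Figure D2:**
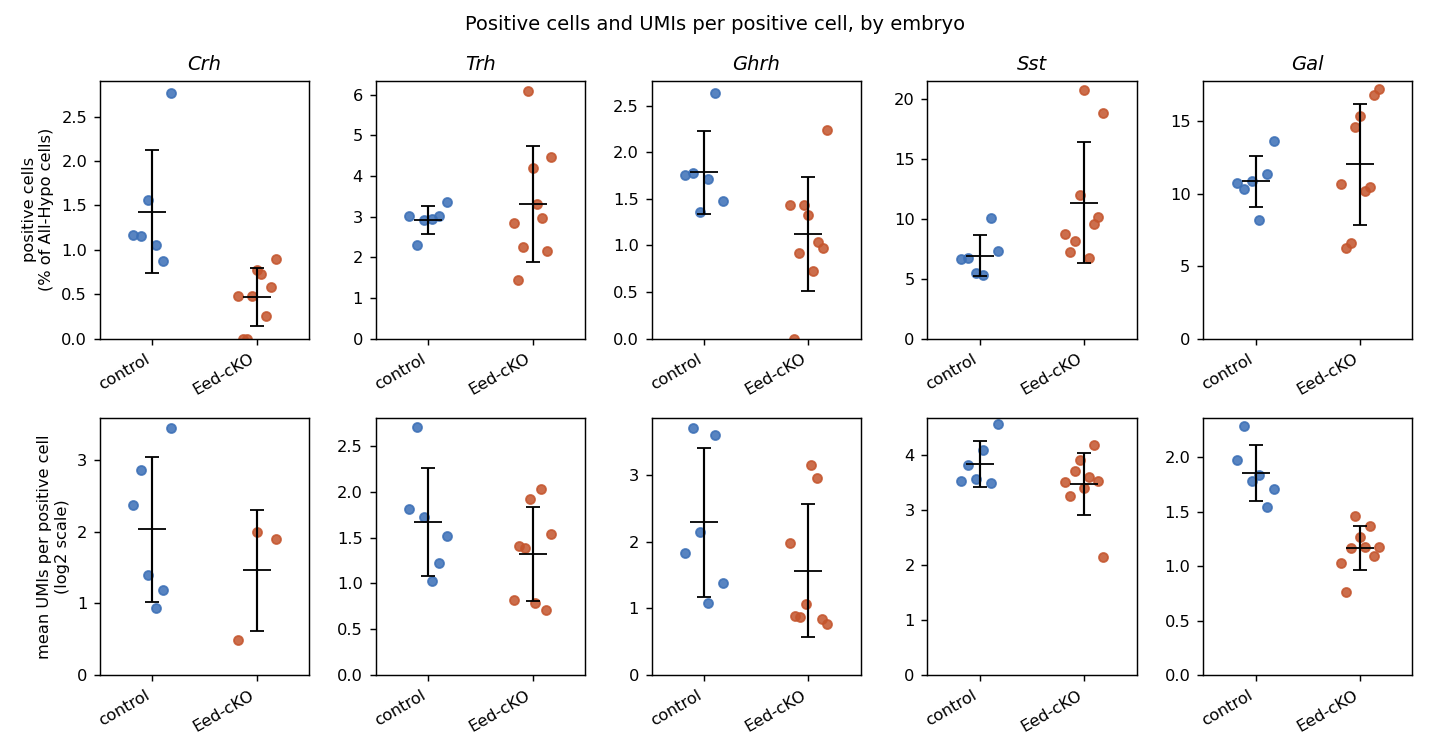
Upper panels: positive cells (percent of All-Hypo cells); lower panels: mean UMIs per positive cell (log2 scale) in embryos with at least 5 positive cells, for each gene and genotype. Each point is an embryo and the bars are the mean ± SD; *Crh* shares of *Eed-cKO* embryos lie at or below 0.895%, and the 2 groups of *Gal* UMIs per positive cell do not overlap.

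Positive cells lay in neuron-like clusters, which held 82.7% to 94.2% of them for each gene and genotype. In control neuron-like cells the levels were 14.2 ± 15.8 CPM for *Crh*, 18.1 ± 4.44 for *Trh*, 26.7 ± 32.1 for *Ghrh*, 201 ± 73.1 for *Sst* and 75.8 ± 7.49 for *Gal* (SD, n = 6). In control astrocyte-like cells they were 0 for *Crh* (0 of 342 cells positive), 4.24 ± 6.63 CPM for *Trh*, 6.19 ± 11.2 for *Ghrh*, 46.9 ± 57.0 for *Sst* and 14.6 ± 24.1 for *Gal*. In control embryos each gene's mean was lower in the astrocyte-like than in the neuron-like cells, and the ranges of *Trh*, *Ghrh* and *Sst* in the 2 classes overlapped over embryos. Other comparisons of classes went the other way with wide errors: *Crh* was 60.6 ± 103 CPM in control tanycyte-like cells, from 2 positive cells of 77, and 51.5 ± 115 in control vascular leptomeningeal cells (n = 5), from 1 of 89, *Ghrh* was 43.2 ± 61.9 and *Trh* 19.7 ± 17 in control cells of unnamed clusters (14 and 17 positive of 1034), and *Crh* in *Eed-cKO* embryos was 3.36 ± 10.1 in astrocyte-like (1 positive cell of 521) and 3.24 ± 3.35 in neuron-like cells.

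Clusters are described by their leading genes, and since the clustering used all genes, the location of a peptide gene in a cluster is a description. A cluster led by *Avp*, *Oxt*, *Calcr* and *Sim1*, genes of magnocellular and paraventricular neurons, held 65.6% of control *Crh* UMIs and 56.1% of *Eed-cKO* ones. It had 347 control and 137 *Eed-cKO* cells, of which 9.22% and 8.03% were *Crh*-positive. The *Crh* level in it was 131 and 54.3 CPM over the pooled cells, and cells with 10 or more *Crh* UMIs numbered 9 and 2. These values rest on 32 and 11 positive cells, with no test. Over All-Hypo cells control embryo 6 alone held 305 of the 556 control *Crh* UMIs, so the pooled control values lean on that embryo. A cluster led by *Barhl1*, *Foxa1*, *Lmx1a* and *Irx5* held a further 12.5% and 15%.

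*Trh* UMIs lay mainly in a cluster led by *Trh*, *Fezf1*, *Zic4* and *Tbr1*, with 64.8% of the control and 55.0% of the *Eed-cKO* UMIs. In it 23.3% of 270 control and 28.8% of 198 *Eed-cKO* cells were positive. *Ghrh* UMIs lay mainly in a cluster led by *Cited1*, *Npy*, *Tbx3* and *Pomc*, genes of arcuate neurons, with 62.0% of the control and 40% of the *Eed-cKO* UMIs. Only 12 of 316 control and 11 of 547 *Eed-cKO* cells of that cluster were positive, and 1 control cell held 320 of its UMIs. By positive cells, non-neural ones included, that cluster held 9.38% in control, against 18% in the *Avp* and *Oxt* cluster and 12.5% in the cluster led by *Sp8*.

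*Sst* was spread over several clusters. In control the arcuate cluster led by *Cited1* held 32.9% of its UMIs, a cluster led by *Sp8*, *Meis2* and *Esrrg* 20.8%, the *Avp* and *Oxt* cluster 15.5% and a cluster led by *Lhx6* and *Dlx6os1* 9.57%. In *Eed-cKO* embryos a cluster led by *Tfap2b*, *Hoxc10*, *Lamp5* and *Hoxc13* held 29.3%, the arcuate cluster 25.1%, the *Trh* and *Fezf1* cluster 14.3%, the *Sp8* cluster 3.87% and the *Lhx6* cluster 0.476%. The *Tfap2b* and *Hoxc10* cluster had 1543 *Eed-cKO* and 22 control cells, and 18.9% of the former were *Sst*-positive. A cluster of 226 cells, all *Eed-cKO*, led by *Alas2*, *Cga*, *Ccno* and *Pomc*, held 4.89% of *Sst* UMIs, and 50.9% of its cells were *Sst*-positive. These clusters held 39.5% and 15.5% of the *Sst*-positive *Eed-cKO* cells, non-neural ones included. The leading *Hox* genes of the first are factors of the posterior neural tube, and both are among the clusters left out above.

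*Gal* UMIs in control lay mainly in a cluster led by *Six6*, *Dlx1*, *Gal* and *Hmx2* (30.6%) and in the *Avp* and *Oxt* cluster (27.5%). In *Eed-cKO* embryos the first held 12.9% and the second 20.3%, while the *Tfap2b* and *Hoxc10* cluster held 20.1%. The cluster of 226 *Eed-cKO* cells held 8.52%, and 39.4% of its cells were *Gal*-positive. It carried 7 neuron markers, while *Cga* among its leading genes is a pituitary hormone subunit gene. In the *Six6* cluster itself 18.1% of 842 control and 25.7% of 187 *Eed-cKO* cells were *Gal*-positive.

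**Figure D3:**
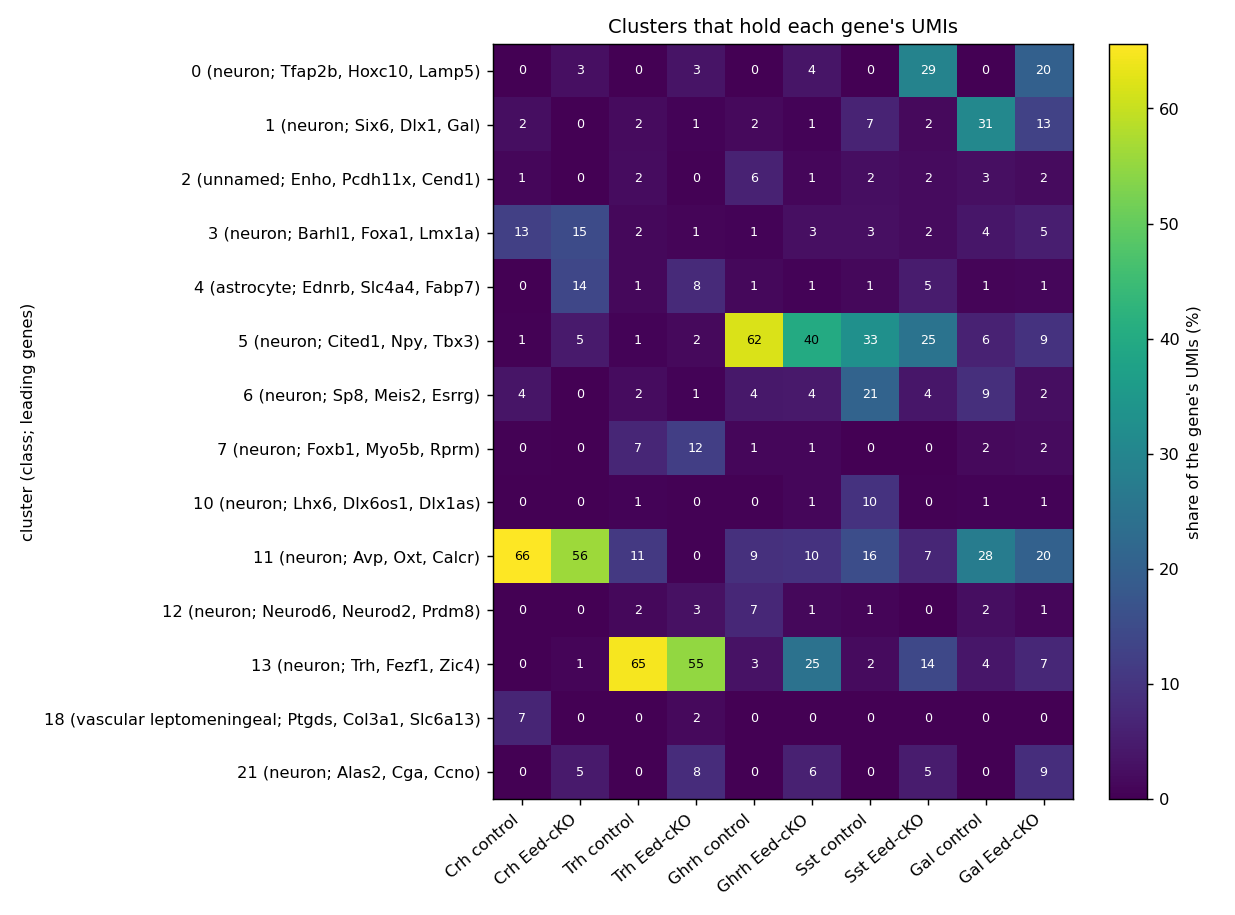
Share of each gene's UMIs (percent, colour and printed value) in the 14 clusters that held at least 5% of the UMIs of a gene in a genotype; a cluster is labelled by its number, class and 3 leading genes. *Crh* lies mainly in the *Avp* and *Oxt* cluster (65.6% of control UMIs), *Trh* in the *Trh* and *Fezf1* cluster (64.8%), and *Sst* and *Gal* gain a share in the *Tfap2b* and *Hoxc10* cluster in *Eed-cKO* embryos (29.3% and 20.1%).

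The UMIs of these genes were unevenly spread over an embryo's libraries, which also differed in size. Within the 6 control embryos the library with most of a gene's UMIs held 40.5% to 74.2% of the embryo's *Crh* UMIs, 44.3% to 85.7% for *Trh*, 48.7% to 75.8% for *Ghrh*, 30.6% to 50.3% for *Sst* and 31.1% to 70.5% for *Gal*. *Crh* was at 0 in 7 of 22 libraries of *Eed-cKO* embryos with at least 3 libraries and *Ghrh* in 3, against 0 of 22 control libraries for either. In control embryo 1, as an example, the *Crh* level ran from 1.13 to 27.5 CPM over 4 libraries.

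The transmitter class of the positive cells was read from *Slc17a6*, the vesicular glutamate transporter, and *Slc32a1*, the vesicular GABA transporter, each at 1 UMI or more. In all, 15 shares were tested over embryos with at least 5 positive cells and adjusted together. In *Sst*-positive cells the share with *Slc32a1* alone fell from 39.2% ± 9.11 (SD, n = 6, range 21.9% to 47.1%) in control to 11.6% ± 4.06 (n = 9, range 3.85% to 15%) in *Eed-cKO* embryos. The share with both transporters rose from 7.71% ± 4.94 (range 1.47% to 16.3%) to 35.9% ± 5.04 (range 29.7% to 43.0%). Neither pair of ranges overlapped, and each gave exact two-sided permutation p = 0.0004, adjusted p = 0.0020. The share with *Slc17a6* alone was 31.4% ± 4.83 and 31.3% ± 3.52 (exact permutation, adjusted p = 0.96). After thinning to 2000 UMIs that share was 13.7 percentage points higher in *Eed-cKO* embryos (exact permutation, adjusted p = 0.012).

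In *Gal*-positive cells these shares differed in the same directions. *Slc32a1* alone fell from 25.7% ± 3.78 (range 19.9% to 30%) to 12.1% ± 4.15 (range 5.74% to 17.9%; exact permutation, adjusted p = 0.0020), and both transporters rose from 6.74% ± 5.40 to 29.5% ± 8.53 (exact permutation, adjusted p = 0.0030). Over 5 alternatives the difference in both transporters ran from 7.74 to 23.8 percentage points and passed in each. After thinning the difference in *Slc32a1* alone was -7.08 percentage points and did not pass (exact permutation, adjusted p = 0.11). *Slc17a6* alone was 46.5% ± 4.30 and 41.3% ± 5.60 (exact permutation, adjusted p = 0.16). In cells with at least 3 *Gal* UMIs it was 37.2% in control and 44.7% in *Eed-cKO* embryos. Both transporters were found more often in *Ghrh*-positive cells as well, with 2.91% ± 4.94 for control embryos (n = 6) against 18% ± 9.11 for *Eed-cKO* embryos (n = 8; exact permutation, adjusted p = 0.020). That *Ghrh* share rests on 127 control and 76 *Eed-cKO* cells, and the difference was 0 percentage points after thinning to 2000 UMIs (exact permutation, adjusted p = 1).

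*Trh*-positive cells were mostly glutamatergic, with 64.6% ± 14.5 having *Slc17a6* alone in control embryos against 54.5% ± 9.62 in *Eed-cKO* embryos (exact permutation, adjusted p = 0.29). For *Crh*-positive cells *Slc17a6* alone came to 63.2% ± 21.9 in control (n = 6) against 67.6% ± 6.60 in *Eed-cKO* embryos (n = 3; exact permutation, adjusted p = 0.96). None of the 6 shares of *Crh* and *Trh* passed.

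The cells without these peptides moved in the same direction. Among *Sst*-negative cells of the same embryos, *Slc32a1* alone was 20.5% ± 2.93 in control and 10.4% ± 1.68 in *Eed-cKO* embryos, and both transporters 4.02% ± 1.70 and 14.5% ± 4.12. With the *Eed-cKO* clusters left out, the difference in both transporters in *Sst*-positive cells was 7.77 percentage points (exact permutation, adjusted p = 0.12), against 28.2 over all clusters. For *Gal* it was 10.3 percentage points (exact permutation, adjusted p = 0.026), against 22.8 over all clusters.

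**Figure D4:**
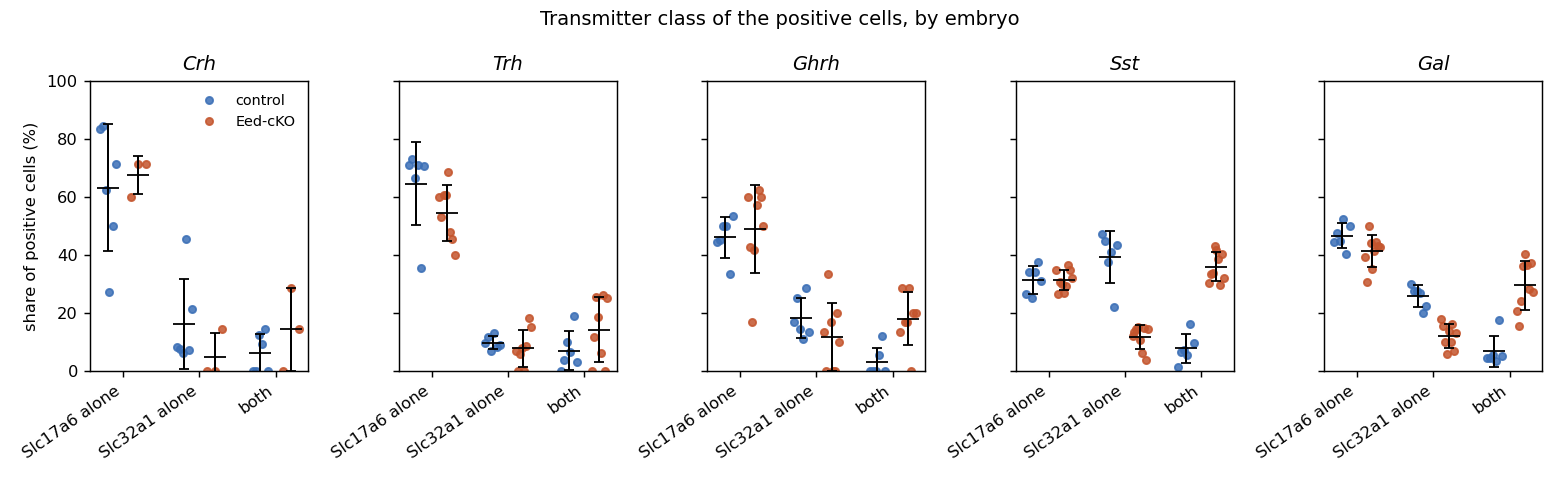
Share of positive cells (percent) with *Slc17a6* alone, *Slc32a1* alone or both, by gene; each point is an embryo with at least 5 positive cells and the bars are the mean ± SD. For *Sst* the share with both transporters lies between 29.7% and 43.0% in *Eed-cKO* embryos and at or below 16.3% in control embryos.

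Pairs of the 5 genes were found together in few cells. Of 10 pairs, 1 differed between genotypes after adjustment: cells with both *Sst* and *Gal* made up 0.768% ± 0.514 (SD, n = 6, range 0.286% to 1.76%) of control and 2.51% ± 1.55 (n = 9, range 1.19% to 5.65%) of *Eed-cKO* All-Hypo cells (exact two-sided permutation p = 0.0024, adjusted p = 0.024). They numbered 58 in control, where the product of the single shares gives 54.0, and 160 in *Eed-cKO* embryos, where it gives 95.8. With the *Eed-cKO* clusters left out the difference was 0.812 percentage points (exact permutation, adjusted p = 0.35), and it did not pass with at least 3 UMIs of each gene or after thinning. With littermates averaged it was 1.95 percentage points (exact permutation p = 0.0095, adjusted over the 10 pairs p = 0.095, the smallest that 210 splits allow for a single pair).

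*Crh* and *Gal* occurred together more often than the product of their shares in both genotypes, in 35 control cells against 10.7 and in 15 *Eed-cKO* cells against 4.31. Of *Crh*-positive cells, 37.2% in control and 46.9% in *Eed-cKO* embryos had *Gal*, where 10.5% and 11.9% of *Crh*-negative cells did. *Ghrh* and *Gal* were together in 32 control cells against 13.8 and in 27 *Eed-cKO* cells against 9.78. *Trh* and *Ghrh* were together in 12 control cells against 3.71 and in 12 *Eed-cKO* cells against 2.85. Positive cells were deeper than the others, which by itself raises such counts, and the part of depth in these pairs was not tested. *Crh* with *Trh* was found in 2 control cells and 1 *Eed-cKO* cell, and *Crh* with *Sst* in 4 and 5.

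Partner genes and transcription factors were read by comparing positive with negative neuron-like cells within each embryo, embryos being blocks, in edgeR's quasi-likelihood test over all genes. Fold changes are log2, positive over negative, with the SE. A small SE or p does not by itself mean that all embryos went 1 way, as few cells can carry a summed level. Positive cells were deeper than the others for each gene and genotype, as for *Gal* in *Eed-cKO* embryos, with a median of 6808 UMIs against 4189 in the other All-Hypo cells. Over the 8 fits that could be repeated with each cell thinned to 2000 UMIs, fewer genes were called in each, and those counts are given beside the first ones; thinning also left fewer cells and UMIs. *Crh*-positive control cells had higher levels of *Foxp2*, *Sim1*, *Barhl1*, *Barhl2* and *Nr3c1*, while more of the factors tested were lower than higher. In them (85 cells, n = 6) 138 of 10704 genes were called, 1.29% (0.458% higher, 0.831% lower; 59 genes after thinning), and of 35 transcription factors tested 5 were higher and 13 lower. *Foxp2* was 430 ± 181 CPM in positive and 161 ± 46.2 in negative cells, a difference of 1.48 ± 0.14 (edgeR adjusted p = 3.9e-24, higher in 6 of 6 embryos). *Sim1*, a bHLH-PAS factor needed for paraventricular and supraoptic neurons, was higher by 0.89 ± 0.24 (edgeR adjusted p = 0.023, higher in 6 of 6 embryos). *Barhl1* was higher by 1.72 ± 0.34 (edgeR adjusted p = 8.8e-05, higher in 6 of 6 embryos), and its paralog *Barhl2* by 1.72 ± 0.27. *Nr3c1*, the glucocorticoid receptor through which corticosteroids feed back on *Crh* neurons, was higher by 1.74 ± 0.33 (edgeR adjusted p = 4.8e-05, higher in 4 of 6 embryos).

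Of 19 partner genes tested, 3 were higher and 10 lower in *Crh*-positive control cells. *Nts*, the neurotensin gene, was 492 ± 675 against 85.2 ± 19.6 CPM, a difference of 1.96 ± 0.17 (edgeR adjusted p = 9.2e-29, higher in 4 of 6 embryos). Its SD over embryos in positive cells was above the mean, so that small SE and p do not describe the spread between embryos. *Grp* was higher by 1.80 ± 0.35 (edgeR adjusted p = 4.9e-05, higher in 5 of 6 embryos). *Oxt* was higher by 0.89 ± 0.24 (edgeR adjusted p = 0.023, higher in 2 of 6 embryos), so its call rested on few embryos. *Avp* was lower in summed level (-1.42 ± 0.39, edgeR adjusted p = 0.028), although 12.4% ± 10.6 (SD) of positive and 5.23% ± 1.13 of negative cells had an *Avp* UMI. Genes at 0 UMIs in *Crh*-positive cells were *Igf1* (at least 7.53-fold lower), *Agrp* (at least 8.36-fold), *Vgll2* (at least 5.89-fold), *Tbx3* (at least 5.77-fold) and *Sox14* (at least 4.98-fold), against a floor of 3 UMIs over the group. *Agrp* and *Tbx3* are genes of arcuate neurons. *Pcp4l1* (2.37) and *Dgkk* (1.96) were the largest rises that had 1 sign in all 6 embryos. In *Eed-cKO* embryos only 2 had 5 or more *Crh*-positive neuron-like cells, 13 cells in all, and no fit was made.

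*Trh*-positive cells carried a set of transcription factors that passed in both genotypes. In control (179 cells, n = 6) 104 of 10687 genes were called, 0.973% (0.449% higher, 0.524% lower; 41 genes after thinning), with 7 of 36 transcription factors tested higher and 10 lower. In *Eed-cKO* embryos (209 cells, n = 8) 108 of 9711 genes were called, 1.11% (0.577% higher, 0.535% lower; 22 genes after thinning), with 6 of 29 higher and 6 lower. *Onecut2* was higher by 1.91 ± 0.12 (edgeR adjusted p = 9.9e-17, higher in 6 of 6 embryos) in control and by 1.16 ± 0.10 (edgeR adjusted p = 6.1e-13, higher in 7 of 8 embryos) in *Eed-cKO* embryos. *Sim1* was higher by 1.42 ± 0.17 (edgeR adjusted p = 5.8e-08, higher in 6 of 6 embryos) and by 1.12 ± 0.18 (edgeR adjusted p = 2.3e-05, higher in 8 of 8 embryos). *Fezf1*, a zinc finger factor of the ventromedial hypothalamus, was higher by 1.41 ± 0.24 (edgeR adjusted p = 7.2e-05, higher in 5 of 6 embryos) and by 1.56 ± 0.26 (edgeR adjusted p = 4.5e-05, higher in 6 of 8 embryos). *Zic1* (1.12 and 0.59), *Foxb1* (0.75 and 0.98) and *Nkx2-1* (0.74 and 0.70) passed as higher in both genotypes, and *Isl1* and *Dlx1* as lower in both. *Sall3*, listed here with posterior factors, was higher by 1.89 and 1.73.

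The transmitter genes of *Trh*-positive cells differed as well. *Slc32a1* was lower in control (-1.07 ± 0.18, edgeR adjusted p = 8.1e-05, lower in 6 of 6 embryos) and in *Eed-cKO* embryos (-1.33 ± 0.18, edgeR adjusted p = 5.4e-07, lower in 8 of 8 embryos). *Slc17a6* was higher in control (0.34 ± 0.08, edgeR adjusted p = 0.0095, higher in 6 of 6 embryos). *Trhde*, the ectoenzyme that degrades Trh, was higher in control *Trh*-positive cells (1.05 ± 0.25, edgeR adjusted p = 0.011, higher in 6 of 6 embryos). The largest control rises beside *Onecut2* that had 1 sign in all embryos were those of *Sncg* (2.45), *Asic4* (2.21), *Ngb* (1.86) and *D930028M14Rik* (1.76). The largest control falls were in genes with 1 to 3 UMIs in positive cells, namely *Pmch*, *Vgll2*, *Sp8*, *Igf1* and *Prdm12*. In *Eed-cKO* embryos *Cbln1* (1.38), *Sdc2* (0.94) and *Itga6* (0.85) rose beside *Sall3* and *Sim1*. *Avp* (-5.33), *Lamp5* (-2.71), *Hoxc8* (-2.50) and *Hoxc13* (-2.42) fell, and *Dmbx1* had 2 UMIs.

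*Ghrh*-positive cells carried *Th*, the rate-limiting enzyme of catecholamine synthesis, in both genotypes. In control (105 cells, n = 6) 180 of 10725 genes were called, 1.68% (0.755% higher, 0.923% lower; 16 genes after thinning), and in *Eed-cKO* embryos (69 cells, n = 8) 62 of 9345, 0.663% (0.171% higher, 0.492% lower). *Th* was 155 ± 167 CPM in positive and 21.7 ± 11.6 in negative control cells (2.66 ± 0.28, edgeR adjusted p = 6.0e-13, higher in 6 of 6 embryos). In *Eed-cKO* embryos it was 87.6 ± 53.6 against 9.27 ± 4.24 CPM (3.24 ± 0.39, edgeR adjusted p = 5.8e-13, higher in 8 of 8 embryos). In control, 22.3% ± 10.7 (SD) of positive and 4.15% ± 1.11 of negative cells had a *Th* UMI. *Ddc*, the next enzyme of dopamine synthesis, was higher in control (1.61 ± 0.30, edgeR adjusted p = 0.00013, higher in 3 of 6 embryos), so that not every embryo showed it.

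Of 12 genes of peptide processing tested, 3 were higher in control *Ghrh*-positive cells. *Pcsk1*, a prohormone convertase that cuts peptide precursors, was higher by 2.30 ± 0.40 (edgeR adjusted p = 3.4e-05, higher in 6 of 6 embryos), *Pam* by 0.70 and *Pcsk1n* by 0.51. Among 35 transcription factors tested *Onecut2* (1.32), *Pou3f2* (1.26) and *Sim1* (1.16) were higher and 6 were lower. *Gsx1*, *Hmx2* and *Hmx3* are known for their part in arcuate *Ghrh* neurons. *Gsx1* did not pass (1.68 ± 0.59, edgeR adjusted p = 0.18, higher in 5 of 6 embryos), nor did *Hmx2* (-0.94 ± 0.66, edgeR adjusted p = 0.73) or *Hmx3* (-1.51 ± 0.83, edgeR adjusted p = 0.60).

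Among the other peptide genes *Trh* and *Gal* had higher and *Sst* lower summed levels in *Ghrh*-positive cells of both genotypes. *Trh* was higher in control (3.99 ± 0.30, edgeR adjusted p = 3.8e-21, higher in 5 of 6 embryos) and in *Eed-cKO* embryos (3.50 ± 0.32, edgeR adjusted p = 2.5e-21, higher in 5 of 8 embryos). All-Hypo cells with both genes numbered 12 in each genotype, so few cells carried this difference. *Gal* was higher in control (1.81 ± 0.25, edgeR adjusted p = 5.4e-08, higher in 4 of 6 embryos) and in *Eed-cKO* embryos (1.19 ± 0.24, edgeR adjusted p = 0.00026, higher in 6 of 8 embryos). *Sst* was lower in control (-2.84 ± 0.25, edgeR adjusted p = 5.7e-17, lower in 6 of 6 embryos) and in *Eed-cKO* embryos (-1.33 ± 0.22, edgeR adjusted p = 1.8e-06, lower in 7 of 8 embryos). By cells, *Sst* was found in 8.66% of *Ghrh*-positive and 7.14% of *Ghrh*-negative control All-Hypo cells (11 cells, where the product of shares gives 9.57), and in 7.89% and 11.4% in *Eed-cKO* embryos. Of 21 partner genes tested in control 7 were higher and 4 lower, the latter *Tac2*, *Pmch* (-4.71), *Slc6a3* (-3.72) and *Hcrt* (-2.41), and of 13 in *Eed-cKO* embryos 3 were higher and 2 lower, *Cck* and *Npy* (-1.35). In control *Crh* (2.43, 2 of 6 embryos), *Avp* (2.40, 3 of 6), *Cartpt* (2.33, 3 of 6) and *Oxt* (2.28, 3 of 6) passed too, in at most 3 of 6 embryos. *Fosl2* (2.47), *Ppapdc1a* (2.11) and *Gpx3* (1.77) rose beside *Th* and *Pcsk1* in all 6 control embryos. Genes at 0 UMIs there were *Lhx6* (at least 7.30-fold lower), *Pax6* (at least 7.21-fold), *Vgll2* (at least 5.88-fold), *Tac2* (at least 4.62-fold) and *Mab21l1* (at least 3.10-fold). In *Eed-cKO* embryos *Foxb1* (-2.86), *Rhobtb3* (-2.07) and *Cck* (-1.69) fell, *Nceh1* had 0 UMIs (at least 3.12-fold lower) and *Nptx2* had 2.

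*Sst*-positive control cells had higher summed levels of GABAergic genes and of *Npy* than negative cells. By cells they were mixed: over All-Hypo cells 39.2% had *Slc32a1* alone and 31.4% *Slc17a6* alone. In control (418 cells, n = 6) 105 of 10834 genes were called, 0.969% (0.508% higher, 0.462% lower; 50 genes after thinning). *Slc32a1* was higher by 0.84 ± 0.10 (edgeR adjusted p = 1.4e-06, higher in 6 of 6 embryos), and *Gad2* (0.82 ± 0.10) and *Gad1* (0.52 ± 0.08), the GABA-synthesising enzymes, passed with it. *Slc17a6* was lower (-0.42 ± 0.08, edgeR adjusted p = 0.0012, lower in 6 of 6 embryos). *Npy* was 340 ± 283 against 99.8 ± 62.4 CPM (1.85 ± 0.35, edgeR adjusted p = 0.0019, higher in 4 of 6 embryos). *Npy* was detected in more of the positive cells, where 13.7% ± 5.22 (SD) of positive and 3.90% ± 1.26 of negative cells had a UMI. *Crhbp*, the binding protein that sequesters Crh, was higher by 1.25 ± 0.26 (edgeR adjusted p = 0.0058, higher in 4 of 6 embryos), and *Pnoc* by 0.96 ± 0.13. Of 37 transcription factors tested 4 were higher and 6 lower. *Meis2* was higher by 1.71 ± 0.12 (edgeR adjusted p = 2.0e-12, higher in 6 of 6 embryos), *Six3* by 0.92, *Isl1* by 0.91 and *Dlx1* by 0.38. *Dlx1* is a factor of forebrain GABAergic neurons.

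In *Eed-cKO* embryos (644 *Sst*-positive cells, n = 9) 381 of 9643 genes were called, 3.95% (2.17% higher, 1.78% lower; 118 genes after thinning). *Npy* (1.14 ± 0.17), *Meis2* (0.75 ± 0.10), *Slc32a1* (0.59 ± 0.08) and *Pnoc* (0.46 ± 0.09) passed as higher there too, while *Dlx1* was lower (-0.44 ± 0.10, edgeR adjusted p = 0.0057, lower in 8 of 9 embryos). Of 29 transcription factors tested 2 were higher, *Meis2* and *Six6* (0.44), and 10 lower, the latter led by *Foxb1*, *Nkx2-1*, *Nr4a2* (-0.84) and *Tbx3* (-0.73). *Gata3* (0.99 ± 0.13, edgeR adjusted p = 4.7e-07, higher in 8 of 9 embryos) and *Tfap2b* (0.84 ± 0.14, edgeR adjusted p = 3.4e-05, higher in 8 of 9 embryos), used in the posterior neural tube, were higher. *Gata3* was found in 166 of 644 and *Tfap2b* in 143 of 644 *Eed-cKO* *Sst*-positive cells, against 1 of 418 in control for each. The largest control rises with 1 sign in all embryos were *Piezo2* (2.33), *Pax6* (2.24), *Meis2*, *Gpc3* (1.61) and *Slc30a3* (1.43). The falls were *Oxt* (-5.95), *Agrp* (-3.15), *Asic4* (-2.40), *Foxb1* (-2.31) and *Myo5b*, which had 3 UMIs. In *Eed-cKO* embryos *Itm2a* (1.37), *Mab21l2* (1.13), *Crabp1* (1.09), *Ier3* (0.98) and *Aldoc* (0.89) rose, and *Foxb1* (-2.27), *Neurod6* (-1.52), *Slc18a2* (-1.32), *Cck* (-1.31) and *Nkx2-1* (-1.24) fell.

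*Gal*-positive control cells had higher summed levels of *Avp*, *Ghrh* and *Crh*, each found in a small share of them. In control (676 cells, n = 6) 371 of 10946 genes were called, 3.39% (2.08% higher, 1.31% lower; 91 genes after thinning). *Avp*, the vasopressin gene, was 3660 ± 2782 CPM in positive and 46.4 ± 42.9 in negative cells (6.19 ± 0.47, edgeR adjusted p = 1.7e-09, higher in 6 of 6 embryos). By cells, 10.7% ± 4.39 (SD) of positive and 4.62% ± 1.1 of negative cells had an *Avp* UMI, so that the level differed far more than the share. *Crh* was higher by 3.19 ± 0.38 (edgeR adjusted p = 5.2e-06, higher in 5 of 6 embryos) and *Ghrh* by 3.87 ± 0.50 (edgeR adjusted p = 1.4e-05, higher in 4 of 6 embryos). *Crh* was found in 33 and *Ghrh* in 27 of the 676 cells. *Npff* (2.22), *Cartpt* (1.34), *Cck* (1.2), *Grp* (1.1) and *Th* (0.84) passed as higher. Of 38 transcription factors tested 8 were higher and 13 lower. *Hmx2* (1.39 ± 0.24, edgeR adjusted p = 0.00080, higher in 5 of 6 embryos), *Hmx3* (1.35 ± 0.22, edgeR adjusted p = 0.00035, higher in 6 of 6 embryos) and *Gsx1* (1.34 ± 0.34, edgeR adjusted p = 0.025, higher in 5 of 6 embryos) were among the higher, with *Ebf3*, *Pou3f2*, *Sim1*, *Nr3c1* and *Dlx1*. *Tbx3* (-2.24), *Nr5a1* (-2.08) and *Sox14* (-1.89) were lower. *Gsta4* (2.02), *Gpr50* (1.90) and *Pgr15l* (1.54) rose in all 6 embryos, and *9130024F11Rik* (-2.28) and *Crnde* (-1.69) fell.

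In *Eed-cKO* embryos (731 *Gal*-positive cells, n = 9) 649 of 9868 genes were called, 6.58% (3.54% higher, 3.04% lower; 53 genes after thinning). *Avp* was 965 ± 764 against 7.95 ± 9.63 CPM (7.05 ± 0.18, edgeR adjusted p = 1.4e-38, higher in 7 of 9 embryos), so that not every embryo showed it. *Penk* (1.00), *Hmx2* (0.90), *Ebf3* (0.84), *Cartpt* (0.83) and *Foxp2* (0.36) were higher. Of 31 transcription factors tested 3 were higher and 11 lower, the lower led by *Lhx6* (-1.10), *Nhlh2* (-1.03), *Tbx3* (-0.93) and *Nkx2-1* (-0.86). *Nfia* (-1.28), *Nfib* (-1.28), *Sox1* (-1.17), *Nfix* (-1.07) and *Neurod2* (-1.06) had the largest falls with 1 sign in all embryos. *B2m* (1.06), *Adcy7* (0.89), *Dclk3* (0.78), *H2-DMa* (0.76) and *Nrgn* (0.75) had the largest rises.

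**Figure D5:**
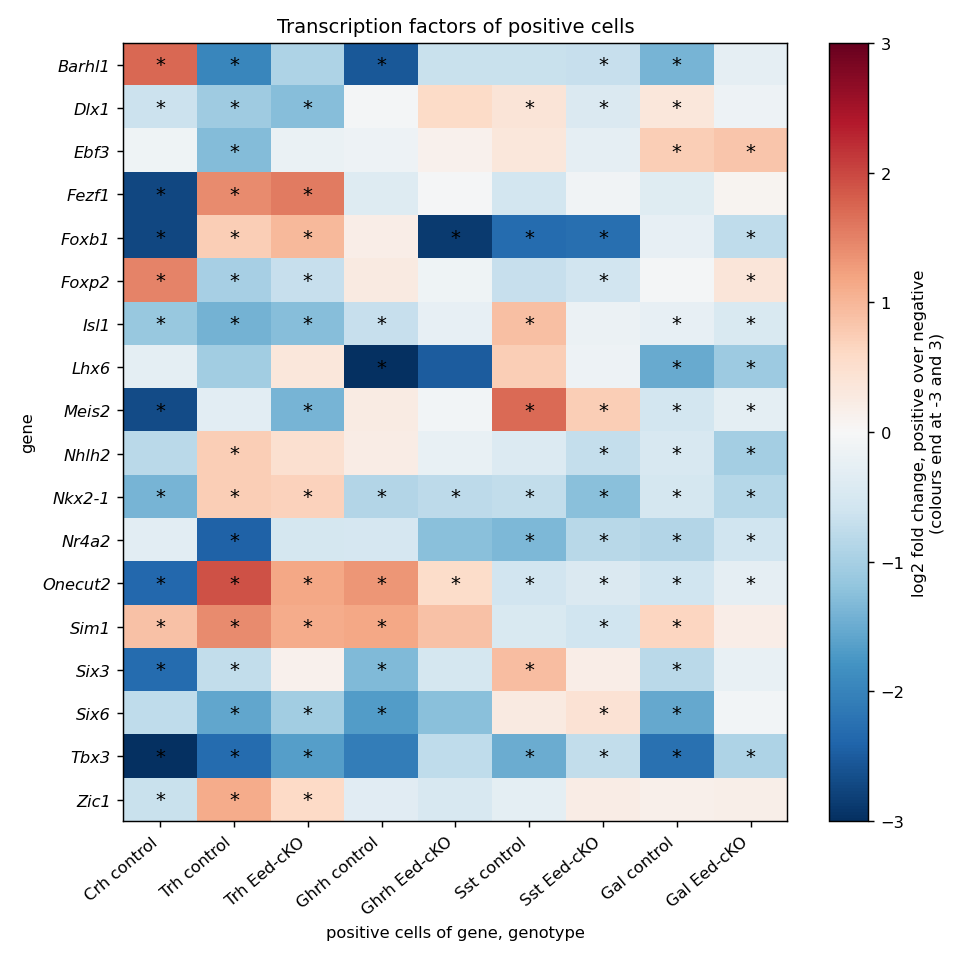
Log2 fold change, positive over negative neuron-like cells (colour, ending at -3 and 3), of the 18 transcription factors past the threshold in at least 3 of the 9 fits; each column is the positive cells of 1 gene in 1 genotype and an asterisk marks an adjusted p under 0.05 in edgeR's quasi-likelihood test. *Sim1* and *Onecut2* are higher in both *Trh* columns, *Meis2* in both *Sst* columns, and *Foxp2* and *Barhl1* in the *Crh* column.

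Positive cells were then compared between genotypes over embryos. *Sst*-positive cells of *Eed-cKO* embryos had lower levels of *Dlx1*, *Six3* and *Isl1*, and higher levels of *Tbx3*, *Nkx2-2*, *Onecut2*, *Six6* and several posterior factors. The cells compared lay in different clusters: the *Tfap2b* and *Hoxc10* cluster and the cluster of 226 *Eed-cKO* cells held most of the *Eed-cKO* ones. In them 339 of 7569 genes were called, 4.48% (2.39% higher, 2.09% lower), and of 23 transcription factors tested 4 were higher and 3 lower. *Dlx1* fell from 251 ± 73.0 to 76.2 ± 21.1 CPM (SD, n = 6 and 9; -1.61 ± 0.16, edgeR adjusted p = 2.6e-09). Every *Eed-cKO* embryo lay below every control. *Six3* (-1.08) and *Isl1* (-0.81) fell, and *Tbx3* (2.16), *Nkx2-2* (1.80), *Onecut2* (1.05) and *Six6* (0.76) rose. *Slc17a6* rose (0.55 ± 0.13, edgeR adjusted p = 0.010) and *Gad2* fell (-0.63 ± 0.15, edgeR adjusted p = 0.010).

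Factors of the posterior neural tube and *Vax2*, a factor of the ventral forebrain and eye, were among the largest rises. In control *Sst*-positive cells *Tal1*, *Hoxc10*, *Hoxc13*, *Hoxb13* and *Vax2* had 0 UMIs, and in *Eed-cKO* embryos they were at least 125-fold, 88.4-fold, 70.9-fold, 56.4-fold and 48.8-fold higher, against a floor of 3 UMIs over the control group. *Gata3* rose from 2.17 ± 5.31 to 107 ± 47.6 CPM (5.29 ± 0.45, edgeR adjusted p = 4.6e-11) and *Tfap2b* from 9.29 ± 22.7 to 172 ± 89.4 CPM (3.91 ± 0.49, edgeR adjusted p = 6.1e-07), without overlap of embryos. Over all All-Hypo cells 7 of 8 listed posterior factors tested were called higher, where 15.3% of all genes tested were. *Tfap2a*, *Tfap2b*, *Pax2*, *Pax8* and *Lhx5* of them were singled out by the study on these samples, and the list is not independent evidence. *Gda* (-2.28), *Bdnf* (-1.98) and *B3glct* (-1.66) were further large falls. These genes moved the same way over all All-Hypo cells: *Tal1* rose from 4.46 to 92.6 CPM, *Hoxc10* (66.9 CPM), *Hoxc13* (51.2) and *Vax2* (27.6) rose from 0, *Hoxb13* rose from 0.0324 to 40.3 CPM, and *Gda* (-1.53), *Bdnf* (-1.16), *B3glct* (-1.10) and *Dlx1* (-1.06) fell.

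With the clusters of over 95% *Eed-cKO* cells left out, 417 control and 237 *Eed-cKO* *Sst*-positive cells remained, and 66 of 6083 genes were called, 1.08%. The cells left still lay in different clusters: the *Sp8* and *Meis2* cluster held 119 of the control and 17 of the *Eed-cKO* ones. *Dlx1* (-1.62 ± 0.20, edgeR adjusted p = 1.1e-06), *Six3* (-1.22 ± 0.24, edgeR adjusted p = 0.0030) and *Gad2* (-0.92 ± 0.17, edgeR adjusted p = 0.0010) passed as lower there too, and *Onecut2* (1.05 ± 0.21, edgeR adjusted p = 0.0042), *Pcsk2* (1.18 ± 0.20, edgeR adjusted p = 0.00031) and *Cartpt* (2.17 ± 0.48, edgeR adjusted p = 0.011) as higher. *Slc32a1* (-0.99 ± 0.17, edgeR adjusted p = 0.00061) and *Meis2* (-1.34 ± 0.22, edgeR adjusted p = 0.00022) were lower there, where over all clusters they gave -0.21 and -0.48 and did not pass (edgeR adjusted p = 0.43 and 0.11). *Isl1* (-0.32 ± 0.19, edgeR adjusted p = 0.55), *Six6* (0.59 ± 0.26, edgeR adjusted p = 0.33) and *Slc17a6* (0.35 ± 0.16, edgeR adjusted p = 0.36) did not pass. *Tal1* was at 0 UMIs in controls against 124 in *Eed-cKO* cells. *Tbx3*, *Nkx2-2*, *Gata3* and *Tfap2b* did not reach the filter on low values, so their rises could not be tested there.

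In *Gal*-positive cells 434 of 8837 genes were called, 4.91% (2.85% higher, 2.06% lower), and of 14 partner genes tested 2 were lower and 1 higher. *Crh* in *Gal*-positive cells fell from 56.8 ± 76.2 to 9.34 ± 12.7 CPM (-2.41 ± 0.58, edgeR adjusted p = 0.011), *Avp* from 3757 ± 2854 to 968 ± 768 (-1.87 ± 0.47, edgeR adjusted p = 0.016) and *Th* from 41.4 ± 14.6 to 15 ± 8.83 (-1.41 ± 0.31, edgeR adjusted p = 0.0050). *Pnoc* rose (1.04 ± 0.14, edgeR adjusted p = 4.2e-06). *Scg2*, a granin of dense core vesicles, fell (-0.76 ± 0.11, edgeR adjusted p = 2.9e-05). Of 30 transcription factors tested *Tbx3* (2.61), *Six6* (1.90), *Barhl1* (1.60) and *Onecut2* (1.21) were higher and *Dlx1* (-1.31) and *Dlx2* (-0.68) lower. *Hoxc10*, *Hoxc13*, *Hoxb13*, *Vax2* and *Twist1* had 0 UMIs in control and were at least 124-fold, 97.7-fold, 81.1-fold, 72.6-fold and 53.3-fold higher in *Eed-cKO* embryos. *Myo7a* (-4.03), *Oprk1* (-1.81), *Cadps2* (-1.16) and *Rps13* (-1.11) fell without overlap of embryos. Over all All-Hypo cells the same *Hox* genes and *Vax2* rose, as given above, as did *Twist1* (0.227 to 26.9 CPM), and *Myo7a* (-2.19), *Oprk1* (-1.51), *Rps13* (-1.10), *Dlx1* (-1.06) and *Cadps2* (-0.91) fell. The *Gal*-positive cells compared lay in different clusters as well, in these fits and without the clusters of over 95% *Eed-cKO* cells: the *Six6* and *Dlx1* cluster held 152 of 676 control but 48 of the 431 *Eed-cKO* cells then left. With those clusters left out (676 and 431 cells) 73 of 7715 genes were called, 0.946%. *Dlx1* (-1.15 ± 0.15, edgeR adjusted p = 9.3e-06), *Scg2* (-0.54 ± 0.13, edgeR adjusted p = 0.031), *Tbx3* (2.54 ± 0.40, edgeR adjusted p = 0.00017), *Pnoc* (0.68 ± 0.15, edgeR adjusted p = 0.019), *Onecut2* (1.12), *Barhl1* (1.79) and *Rps13* (-1.32) were among those that passed. *Avp* (-1.11 ± 0.47, edgeR adjusted p = 0.31), *Th* (-0.66 ± 0.33, edgeR adjusted p = 0.39), *Six6* (0.99 ± 0.34, edgeR adjusted p = 0.18), *Dlx2* (-0.52 ± 0.23, edgeR adjusted p = 0.34) and *Cadps2* (-0.86 ± 0.24, edgeR adjusted p = 0.082) did not pass, and *Crh* did not reach the filter on low values.

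In *Trh*-positive cells 18 of 4444 genes were called, 0.405%. *Hddc3* (2.48), *Bmi1* (1.34), *Mrpl12* (0.94) and *Ftl1* (0.56) rose, and *Arl6ip1* (-0.95), *Rps15a* (-0.91), *Scg2* (-0.58) and *Rab6a* (-0.49) fell, without overlap of embryos. Over all All-Hypo cells the same genes gave 2.77, 1.3, 0.15 and 0.39 for the rises and -1.04, -0.85, -0.61 and -0.56 for the falls, in this order, and all but *Mrpl12* passed there too. *Bmi1* encodes a subunit of Polycomb repressive complex 1. In *Ghrh*-positive cells 1 of 2011 genes was called, 0.0497%, which was *Arl6ip1* (896 ± 109 in control and 428 ± 94.9 CPM in *Eed-cKO* embryos; -1.07 ± 0.17, edgeR adjusted p = 0.0013). That fit rested on 105 and 69 *Ghrh*-positive cells. The difference between positive and negative cells itself differed between genotypes for 4 of 10410 genes for *Trh*, 0.0384% (0.00961% higher, 0.0288% lower), and 3 of 10210 for *Ghrh*, 0.0294% (0.00979% higher, 0.0196% lower). It did so for 34 of 10356 genes for *Sst*, 0.328% (0.135% higher, 0.193% lower), and 18 of 10634 for *Gal*, 0.169% (0.0658% higher, 0.103% lower).

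Other genes of these pathways were measured over All-Hypo cells. Of 16 receptor and binding protein genes listed 6 passed the filter on low values, with 3 lower and 1 higher, where 12.4% of all genes tested were lower and 15.3% higher. *Sstr1*, a somatostatin receptor, fell from 49.9 ± 9.08 to 30.4 ± 6.39 CPM (-0.66 ± 0.12, edgeR adjusted p = 0.00032), without overlap of embryos. *Sstr2* rose from 1.68 ± 0.718 to 4.30 ± 1.86 CPM (1.35 ± 0.29, edgeR adjusted p = 0.0015). *Trhr*, the Trh receptor, fell (-0.81 ± 0.21, edgeR adjusted p = 0.0057), as did *Trhde* (-0.71 ± 0.17, edgeR adjusted p = 0.0035). Of 12 genes of peptide processing and dense core vesicles 5 were lower, *Cadps2* (-0.91), *Pcsk1* (-0.68), *Scg2* (-0.61), *Pam* (-0.36) and *Scg3* (-0.25). The median of the 12 was -0.14, beside 0.01 over all genes tested.

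Of 23 partner genes tested 9 were lower and 5 higher (39.1% and 21.7%, beside 12.4% and 15.3% over all genes). *Oxt* (-3.16), *Pmch* (-2.66), *Avp* (-1.87), *Vip* (-1.41), *Th* (-1.33), *Agrp* (-1.32), *Grp* (-1.17), *Ddc* (-0.95) and *Pdyn* (-0.38) fell. *Pomc* (2.36), *Kiss1* (1.38), *Nmu* (1.33), *Cartpt* (1.18) and *Pnoc* (0.75) rose. *Pomc* had a median of 14.2 CPM in control and 47.5 in *Eed-cKO* embryos, where 1 embryo reached 479 CPM. Pituitary markers moved with it: of 10 listed 5 were in the table, and their summed level ran from 1.71 to 3.91 CPM in control and from 9.44 to 109 in *Eed-cKO* embryos, with *Pitx1* at 0 in every control embryo. With the clusters of over 95% *Eed-cKO* cells left out that sum ran from 3.74 to 13.4 CPM in *Eed-cKO* embryos, *Pomc* gave 1.16 ± 0.34 (edgeR adjusted p = 0.014) and *Pnoc* did not pass (0.13 ± 0.12, edgeR adjusted p = 0.46). Of 41 transcription factors tested 8 were lower and 6 higher (19.5% and 14.6%, beside 12.4% and 15.3% over all genes). *Arnt2*, the partner of Sim1 in the development of *Crh* and *Trh* neurons, fell from 297 ± 22.2 to 229 ± 19 CPM (-0.37 ± 0.07, edgeR adjusted p = 0.00023), without overlap of embryos. *Dlx1* (-1.06) and *Foxp2* (-0.60) also fell, and *Tbx3* (1.32), *Onecut2* (0.81) and *Six6* (0.57) rose. Of 5 transmitter genes tested *Slc17a8* (-0.90) and *Gad2* (-0.23) were lower.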

How the data were processed

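Per the labels and the study's methods, cells were captured on a droplet system and read by 3′ tags. The authors aligned reads with STAR 2.5.2b to mm10, used SAMtools 1.3, and removed cells under 600 UMIs, under 1.2 UMIs per expressed gene or under 300 genes. The deposited values are raw UMI counts per gene and cell, and 14121 cells of 48 libraries were used, with no further filter on cells. Doublets were not removed, except in an alternative that left out the highest 6% of doublet scores.

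Clusters were made by the Leiden method (leidenalg 0.10.2, scanpy 1.11.5; 2000 variable genes, 30 principal components, 15 neighbours, resolution 1), and the 27 clusters were named "like" a type from listed markers. Counts were summed per embryo, the replicate, and tested with edgeR 4.0.16 (quasi-likelihood, TMM scaling, Benjamini-Hochberg adjustment over all genes tested) in R 4.3.3. SEs were derived from the test statistic, or from the p-value where edgeR had raised it to its Poisson bound. In the genotype fit over All-Hypo cells genes needed at least 15 UMIs in all, 2 in 1 embryo and a median log2 CPM of 1.5. All fits of positive cells, the interaction included, used edgeR's own filter on low counts (filterByExpr) instead. Positive cells were compared with negative neuron-like cells in embryos with at least 5 positive cells, with the embryo as a block. Shares and UMIs per positive cell were compared by exact two-sided permutation (numpy 2.4.6) over all splits of the embryos with a value. The splits numbered 5005 for 6 against 9, where 0.0004 is the smallest p. They numbered 3003 for 6 against 8 and 84 for 6 against 3, where the smallest p is higher. Intervals and floors (3 counts) cover counting error only. The genotype fit over All-Hypo cells and the control *Sst* fit were also run on simulated counts with known changes. The simulation had no litters and no single cells with many UMIs, so it does not bear on those limits.

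The members and gene lists were chosen with earlier results of these data known. Genes named were the 5 members, listed genes past the threshold, and in each fit of positive cells the 5 largest rises and falls whose embryos all went 1 way (or, between genotypes, did not overlap), and the 3 genes most alike to each member. *Otp*, *Neurog3*, *Bsx* and *Lmx1b* were not analysed here, and 2 listed factors are not reported here or counted with their list. Alternatives were another scaling (RLE), DESeq2 1.42.0, limma 3.58.1, other filters, thinning, a higher UMI minimum, sex as a covariate, littermates as 1 sample and leaving out embryos.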

Additional observations from a re-analysis of the deposited data

Results flagged for a closer look

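In 12 of 76 groups of embryo values 1 embryo stood apart from the others of its group; the limit was Dixon's 95% critical value, which by its construction chance passes in about 5 percent of groups. Several of these came from control embryo 5 and *Eed-cKO* embryo 9. Control embryo 6 had 42.4 CPM of *Crh* against 14.1 in the next embryo, and a *Crh*-positive share of 2.76% against 1.56%. Control embryo 5 had a *Ghrh*-positive share of 2.63% against 1.78%, *Ghrh* with *Sst* in 0.439% of cells against 0.0986%, and *Sst* with *Gal* in 1.76% against 0.778%. In the same embryo both transporters were found in 17.7% of *Gal*-positive cells against 5.36%, and *Slc17a6* alone in 35.4% of *Trh*-positive cells against 66.7%. *Eed-cKO* embryo 9, which had 1 library, had *Ghrh* with *Gal* in 1.57% of cells against 0.586%, *Trh* with *Ghrh* in 1.34% against 0.222%, and a log2 mean of 2.15 *Sst* UMIs per positive cell against 3.25. *Eed-cKO* embryo 4 had *Slc17a6* alone in 16.7% of *Ghrh*-positive cells against 41.7%. *Eed-cKO* embryo 5 had *Crh* with *Trh* in 0.111% of cells against 0 in the others.

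For 12 listed genes the difference between positive and negative cells itself differed between genotypes (*Gata3* in both *Sst* and *Gal*), by an interaction term in edgeR's quasi-likelihood test (log2, *Eed-cKO* minus control, ± SE). In all, 3 of 10210 genes passed for *Ghrh* (0.0294%), 34 of 10356 for *Sst* (0.328%) and 18 of 10634 for *Gal* (0.169%). In *Sst*-positive cells *Isl1* (-1.08 ± 0.15, adjusted p = 2.95e-05), *Meis2* (-0.96 ± 0.17, adjusted p = 0.00068), *Dlx1* (-0.81 ± 0.14, adjusted p = 0.00068) and *Six3* (-0.73 ± 0.17, adjusted p = 0.029) had a lower difference in *Eed-cKO* than in control embryos. *Gata3* (3.05 ± 0.55, adjusted p = 0.0012), *Oxt* (4.38 ± 0.99, adjusted p = 0.023), *Pcsk2* (0.80 ± 0.17, adjusted p = 0.0090) and *Slc17a6* (0.52 ± 0.11, adjusted p = 0.0064) moved the other way. *Oxt* had 4 UMIs in control *Sst*-positive cells and *Gata3* was near the floor there too, so both terms rest on few control UMIs. In *Gal*-positive cells *Gata3* (4.90 ± 0.66, adjusted p = 1.9e-05) and *Six6* (1.44 ± 0.26, adjusted p = 0.0027) were higher, and *Tfap2b* (-3.14 ± 0.56, adjusted p = 0.0027) and *Cck* (-1.15 ± 0.25, adjusted p = 0.029) lower, in this difference. In *Ghrh*-positive cells *Foxb1* gave -3.08 ± 0.54 (adjusted p = 0.0018).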

How the results depend on the processing

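Of the values under alternatives, 422 stayed on their side of the threshold, 27 moved past it, 15 fell short of it, 1 passed in the reverse direction and 11 counts moved. The causes were not tested. Not all values that stayed short of the threshold kept their direction. The *Gal*-positive share was 10.8% in control and 12.0% in *Eed-cKO* embryos, but with at least 3 UMIs 3.69% and 2.85%. The *Gal* level passed in edgeR with RLE size factors (-0.39), with the total count filter alone (-0.41), without high doublet scores (-0.41), in embryos with at least 3 libraries (-0.53) and in DESeq2 (-0.39), with adjusted p from 0.0030 to 0.048. The *Ghrh* level no longer passed with sex as a covariate (-1.36), without the clusters of over 95% *Eed-cKO* cells (-1.39, chosen after seeing the data), in embryos with at least 3 libraries (-1.56), or in limma-voom (TREAT, 0.18) by embryo (-1.30) and by library (-1.26), with adjusted p from 0.051 to 0.29. The *Sst* level passed with sex as a covariate (0.47) and without high doublet scores (0.63). The *Sst* share passed with at least 3 UMIs (1.91 percentage points), after thinning (3.20), in neuron-like clusters alone (5.46) and without high doublet scores (4.60). With littermates taken as 1 sample, chosen after seeing the data, the *Sst* share (5.18) and *Slc17a6* alone in *Gal*-positive cells (-5.90) passed and *Sst* with *Gal* (1.95) did not. The *Ghrh* share passed without high doublet scores (-0.762), in embryos with at least 3 libraries (-0.640) and without those clusters (-0.757). These were 3 of 7 alternatives, and it did not pass with at least 3 UMIs or after thinning. *Sst* with *Gal* did not pass with at least 3 UMIs (0.172), after thinning (0.570) or without those clusters (0.812). Both transporters in *Ghrh*-positive cells did not pass after thinning (0), without high doublet scores (12.1) or without those clusters (6.85), nor did they in *Sst*-positive cells without those clusters (7.77). After thinning, *Slc17a6* alone in *Sst*-positive cells reversed to 13.7 percentage points (exact permutation, adjusted p = 0.012) and *Slc32a1* alone in *Gal*-positive cells did not pass (-7.08). *Slc17a6* alone in *Gal*-positive cells passed without high doublet scores (-6.30). With at least 3 UMIs that difference went the other way (7.45) and did not pass. After thinning the counts of genes differing in control positive cells were 59 for *Crh* (138 unthinned), 41 for *Trh* (104), 16 for *Ghrh* (180), 50 for *Sst* (105) and 91 for *Gal* (371), and in *Eed-cKO* positive cells 22 for *Trh* (108), 118 for *Sst* (381) and 53 for *Gal* (649); thinning leaves fewer UMIs to test. With at least 3 UMIs the control *Trh* count was 180 (104). Counts of genes differing between genotypes were 66 in *Sst*-positive and 73 in *Gal*-positive cells without those clusters, against 339 and 434; fewer cells were left.

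When embryos were left out singly, log2 fold changes of levels ran from -2.38 to -1.37 for *Crh* (15 of 15 past the threshold), from -1.91 to -0.91 for *Ghrh* (14, lost without control embryo 5), from -0.47 to -0.32 for *Gal* (4, without control embryos 4 and 6 or *Eed-cKO* embryos 8 and 9), from 0.31 to 0.56 for *Sst* (2, without control embryo 5 or *Eed-cKO* embryo 6) and from -0.06 to 0.15 for *Trh*. The share difference ran from -1.07 to -0.695 percentage points for *Crh* (15 past), from 3.26 to 5.05 for *Sst* (3, without control embryo 5 or *Eed-cKO* embryos 2 or 6) and from -0.805 to -0.496 for *Ghrh* (1, without *Eed-cKO* embryo 9). The log2 difference in *Gal* UMIs per positive cell ran from -0.75 to -0.60 (15 past). Scaling by library size alone moved the median of all genes by 0.047 on the log2 scale. The share of higher genes among those called (edgeR, adjusted p under 0.05) went from 55.1% to 67.7%. No paired analysis was possible because embryo numbers only name embryos within a genotype and no litter held both genotypes. Small numbers of positive cells limit *Crh* and *Ghrh* most.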

Other observations

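The genes whose level across single control All-Hypo cells was most like each peptide gene were *Rasd1* for *Crh* (mean r 0.14), *Asic4* for *Trh* (0.16), *Mbnl3* for *Ghrh* (0.26), *Npy* for *Sst* (0.19) and *Avp* for *Gal* (0.24), by Pearson's r of log2(UMIs per 10000 + 1) averaged over 6 embryos. *Oasl2* (0.13) and *Agtr1a* (0.12) followed for *Crh*, *Onecut2* (0.14) and *Sncg* (0.14) for *Trh*, *Th* (0.23) and *Scgn* (0.13) for *Ghrh*, *Meis2* (0.12) and *Ecel1* (0.12) for *Sst*, and *Fam46a* (0.22) and *Resp18* (0.20) for *Gal*. The cells of an embryo share libraries and differ in depth, and these weak correlations in sparse counts are a description.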
